A study of Mus musculus with 6 samples.

Results

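The genes described here are the Wnt ligands, their Frizzled and Lrp receptors and the proteins that regulate the pathway, as measured in p53-null mouse neural progenitor cells. They were taken as the rows of the deposited table whose symbol matches a fixed set of family names: Wnt, Fzd, Dkk, Sfrp, Nkd1, Nkd2, Axin, Rspo, Dvl, Apcdd1, Notum, Znrf3, Rnf43, Lef1, Tcf7, Tcf7l1, Lrp5, Lrp6, Ctnnb1 and Gsk3. The names matched 49 of 22057 genes, among them Dkkl1, a relative of the Dkk genes, and the transcripts Fzd10os and Rspo4os, which are named as antisense. Of these members 41 had a mean of at least 10 normalized counts over the 6 libraries and were tested together with all 17068 such genes. The other 8 (Wnt2b, Wnt3, Wnt6, Wnt11, Rspo2, Rspo3, Dkkl1 and Rspo4os) were not tested. The member nearest the limit inside it was Lef1, with a mean of 14.9, and outside it Wnt3, with 9.83.

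The PDGFA group (n = 3) is neural progenitor cultures of p53-null mice 62, 68 and 69 after 4 days in PDGFA, the A chain of platelet-derived growth factor, at 20 ug/ml as the labels give it. The EF group (n = 3), the control of the series, is cultures of the same p53-null mice after 4 days in stem cell medium holding EGF and FGF, the epidermal and fibroblast growth factors, plus heparin. All 6 cultures are p53-null, so the comparison is between media within that genotype, with no cells of intact p53 in it. The labels name neither the allele, the age of the mice nor the brain region, nor whether heparin was also in the PDGFA medium. The media differ both in the factors left out and in the factor added.

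Wnt proteins are secreted, lipid-modified ligands that bind Frizzled receptors together with the co-receptors Lrp5 or Lrp6. Without a ligand, a complex built on Axin, in which Gsk3 kinases act, marks beta-catenin for destruction, and with a ligand beta-catenin (Ctnnb1) persists and acts with transcription factors of the TCF/LEF family. Other branches run through Frizzled and Dishevelled (Dvl) to cell polarity without beta-catenin. In the oligodendrocyte lineage the pathway is known to affect when precursors differentiate.

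Exons of Wnt5a, Fzd6, Sfrp2, Axin2, Tcf7l1 and Dvl1 among the called members share some bases with another annotated gene, so reads there are uncertain. The libraries held between 34812800 and 39601349 recovered reads in PDGFA and between 27270246 and 30151469 in EF. The members took 0.302 to 0.333% of the reads in PDGFA and 0.312 to 0.366% in EF. EF cultures varied more among themselves: the median SD over the 3 libraries was 0.215 (log2) in PDGFA and 0.388 in EF for the tested members, and 0.172 and 0.38 for all tested genes. Trp53, the gene named in the genotype, had 1122, 988 and 1099 normalized counts in PDGFA and 2187, 1672 and 2383 in EF for mice 62, 68 and 69. The labels do not give its deleted part, so these reads say nothing about the genotype. All 10 neural progenitor markers were tested, of which 4 were higher and 4 lower in PDGFA, with a summed level of 58809.6 to 63731 in PDGFA against 80307 to 193553 in EF. All 10 markers of dividing cells were lower in PDGFA, with a summed level of 717 to 1058 normalized counts against 50624 to 109014 in EF. All 11 markers of maturing oligodendrocytes were higher, with a sum of 352638 to 433130.0 in PDGFA against 2726 to 4486 in EF, and 6 of 9 astrocyte markers were higher. Oligodendrocyte precursor markers summed to 147395 to 230931 in PDGFA and 88001 to 160044 in EF, where mouse 68 was the highest. Of these 9 precursor markers 4 were higher and 3 lower. Of 9 microglial markers 7, among them Cx3cr1, Aif1 and Ptprc, had no row in the table, and P2ry12 and Csf1r summed to at most 44.7. Neuron markers summed to 37639 to 46871 in PDGFA and 26829 to 31582 in EF, with 3 higher and 1 lower of 9 tested. Mural and fibroblast markers summed to 814.5 to 967 in PDGFA and 87.1 to 180.1 in EF, with 2 higher and 1 lower of 4 tested. Endothelial markers summed to 440.5 to 705 in PDGFA and 114 to 459 in EF. Of 3 tested endothelial markers 1 was higher and 1 lower. Their median log2 difference was -1.39, so the sum does not show the direction of the single markers. Of 8 ependymal and choroid markers 3 had a row, with a sum of 654 to 1288 in PDGFA and 146 to 679 in EF. These marker levels move with the media, as the members do. Their part in the results below was not tested, and in bulk RNA fewer cells of a type cannot be told apart from less RNA per cell.

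Of the 41 tested members 9 were higher and 15 were lower in PDGFA at a limma adjusted p under 0.05, where 21.8% and 18.0% of all 17068 tested genes were called higher and lower. That is 22.0% and 36.6% of the tested members. Together 24 members, 58.5%, were called, against 39.8% of all tested genes, and the other 17 were not called. The median log2 difference, PDGFA minus EF, was -0.23 for the tested members and -0.0095 for all tested genes. The groups of all 24 called members did not overlap, from which it follows that each went in the same direction in all 3 mice. The log2 difference was at least 1 in size in 21 of the 24. The 3 PDGFA values lay wholly above the 3 EF values in 10 members and wholly below in 17, 65.9% together. Over all tested genes that was 29.2% above and 26.3% below, 55.5% together. The calls went in both directions within every role with more than 1 tested member: 2 ligands were higher and 2 lower, 2 receptors higher and 4 lower, 3 secreted or surface regulators higher and 4 lower. 1 cytoplasmic member was higher and 3 were lower, and 1 TCF/LEF factor was higher and 1 lower. Of the called members 17 kept their call whichever single library was left out. Without PDGFA 62 or without PDGFA 68, 5 members were called higher instead of 9. In these fits 2620 and 2245 of all genes were called higher, instead of 3720. Calls lost when a single library was left out are named with their genes. Members lost without both libraries of mouse 68 are named at the end.

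**Figure D1:**
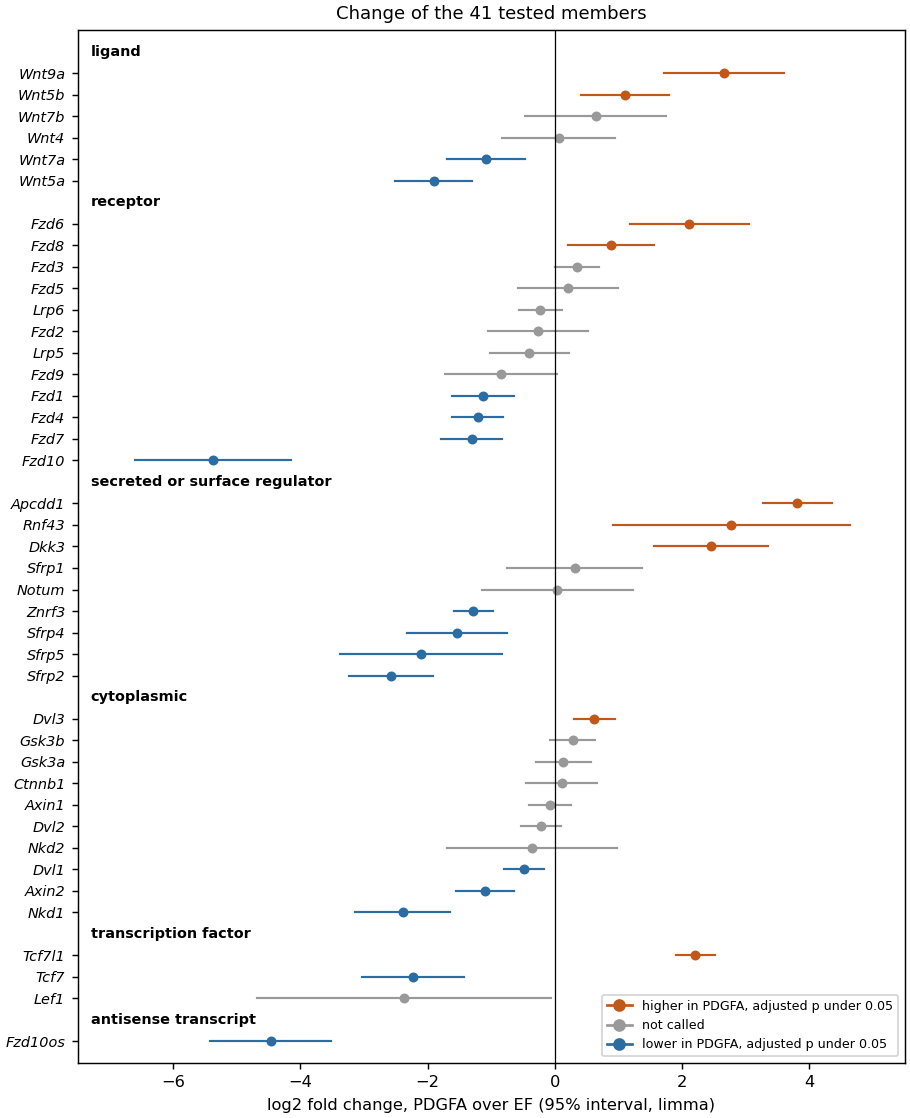
Change of the 41 tested members, grouped by role. Points are log2 differences, PDGFA minus EF, with their 95% intervals from limma, coloured by the adjusted p, and the calls are split in every role with more than 1 tested member: Fzd10 has the largest fall (-5.37) and Apcdd1 the largest rise (3.81).

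Wnt5a, a ligand known mainly for signalling without beta-catenin (chromosome 14, 28504750 to 28527448, GRCm38), had 675, 783 and 947 normalized counts in PDGFA cells of mice 62, 68 and 69, against 4379, 2363 and 2553 in EF cells. All PDGFA values lay below all EF values, a 3.87-fold lower mean (log2 difference -1.91 ± 0.26 SE, limma adjusted p = 0.00108). Wnt7a, a ligand made in the developing forebrain, had 809.7, 704 and 633 in PDGFA and 1001, 1749.6 and 1976 in EF (log2 difference -1.09 ± 0.26 SE, limma adjusted p = 0.0148). The groups did not overlap, but for mouse 62 the difference was -0.31 (log2), against -1.31 for mouse 68 and -1.64 for mouse 69. Wnt7a was not called without PDGFA 68 (limma adjusted p = 0.0529) or without PDGFA 69 (0.0593), and its adjusted p ran over 0.000388 to 0.132 in the alternatives.

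Its close relative Wnt7b, also a forebrain ligand, did not follow it. Wnt7b read 1514, 1955 and 3174 in PDGFA and 783, 2836 and 1117 in EF, with the EF culture of mouse 68 well above the other EF cultures. Its log2 difference was 0.64 (95% interval -0.48 to 1.75, limma adjusted p = 0.322), higher in 2 of 3 mice. Without EF 68 it was 1.17 and called (limma adjusted p = 0.038; 0.038 to 0.686 over the alternatives). The EF library of mouse 68 also held the highest summed level of oligodendrocyte precursor markers in EF. It was likewise the highest in EF for maturing oligodendrocyte, astrocyte, endothelial, and mural and fibroblast markers. A link of Wnt7b to any of these was not tested.

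Both ligands that rose were of low level. Wnt9a (chromosome 11, 59306928 to 59333552) had 54.3, 62.1 and 73.5 in PDGFA and 14.4, 6.76 and 7.67 in EF, a 6.59-fold higher mean (log2 difference 2.66 ± 0.40 SE, limma adjusted p = 0.0019). Wnt5b, the paralog of Wnt5a, had 87.4, 109.8 and 80.6 in PDGFA and 37.3, 48.4 and 42.2 in EF (log2 difference 1.10 ± 0.30 SE, limma adjusted p = 0.0226), so the paralogs moved in opposite directions. The call of Wnt5b was lost with a mouse block (limma adjusted p = 0.0557) and without PDGFA 62 (0.0764), PDGFA 68 (0.124) or PDGFA 69 (0.0534), and its adjusted p ran over 0.00278 to 0.196 in the alternatives. Wnt4 read 17.8, 15.3 and 20.6 in PDGFA and 21.1, 18.0 and 12.8 in EF, with an interval of -0.82 to 0.95 for its log2 difference. Among the ligands that were not tested, Wnt11 had 8.49, 6.68 and 10.8 in PDGFA and 1.92, 0 and 1.28 in EF, and Wnt2b 6.79, 10.5 and 7.17 and 2.87, 0 and 3.84. These amount to 32 reads of Wnt11 and 33 of Wnt2b over all 6 libraries. Wnt3 and Wnt6 had 61 and 12 reads.

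Per kilobase of annotated exon, 3 ligands made up most of the sum of the 10. Dividing by exon length lets the levels of different genes be compared only roughly. The length counts the exons of all annotated transcripts of a gene, not of those present in these cells. The sum was 712, 794 and 1037 normalized counts per kb in PDGFA and 1061, 1463 and 1202 in EF for mice 62, 68 and 69, lower in PDGFA in each mouse but with little space between the highest PDGFA and the lowest EF library. Wnt7b made up 43.4, 50.3 and 62.5% of it in PDGFA and 15.1, 39.6 and 19.0% in EF, so its share was higher in PDGFA in each of the 3 mice. The share of Wnt5a was 12.1, 12.6 and 11.7% in PDGFA and 52.8, 20.7 and 27.1% in EF. That of Wnt7a was 35.8, 28.0 and 19.3% in PDGFA and 29.7, 37.7 and 51.8% in EF, and these overlap. Wnt9a and Wnt5b together stayed small, at 2.26% and 4.26% of the sum in PDGFA and 0.246% and 1.30% in EF.

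**Figure D2:**
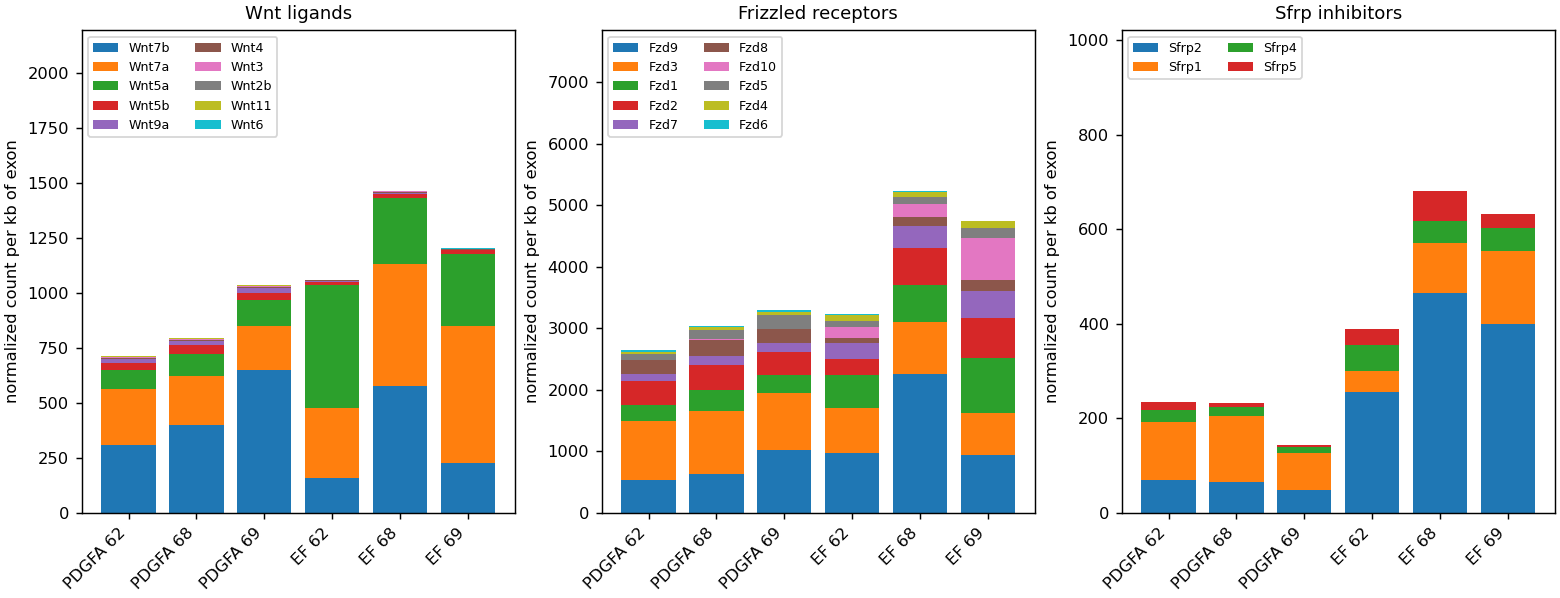
Make-up of 3 families in each library, as normalized counts per kb of GENCODE M21 exon stacked by gene, PDGFA libraries at the left and EF at the right. Wnt7b is the largest part of the ligands in the 3 PDGFA libraries, and Sfrp2 the largest part of the Sfrp genes in the 3 EF libraries.

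The start regions of both ligands that rose are shown, and for Wnt5b the start printed was picked because it holds the word marked below. They are from RefSeq (GRCm38.p6), end at the base before the start site for Wnt5b and 2 bases short of that for Wnt9a, leave out annotated exons, and are on the minus strand for Wnt5b (chr6:119449387-119449636) and on the plus strand for Wnt9a (chr11:59306680-59306927). Capitals mark CTTTGAT, the core word that TCF/LEF factors are known to bind, searched on both strands.
Wnt5b: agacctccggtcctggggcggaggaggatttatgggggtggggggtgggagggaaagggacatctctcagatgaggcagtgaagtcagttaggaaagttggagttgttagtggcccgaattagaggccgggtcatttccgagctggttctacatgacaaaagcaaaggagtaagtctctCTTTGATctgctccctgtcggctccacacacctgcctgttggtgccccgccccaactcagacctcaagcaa
Wnt9a: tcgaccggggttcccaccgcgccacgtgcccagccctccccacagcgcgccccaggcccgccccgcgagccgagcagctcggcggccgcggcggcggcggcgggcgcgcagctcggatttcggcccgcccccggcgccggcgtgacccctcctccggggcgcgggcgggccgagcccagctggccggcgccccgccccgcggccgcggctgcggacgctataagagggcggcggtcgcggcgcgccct
The Wnt9a region is 84.3% G and C and the Wnt5b region, which is 1 of 3 annotated starts of that gene, 55.6%. Of 49 members 30 had promoter windows in that table, 39 windows of 300 bases in all. The word was in 2 of the 39 (5.13%), that of Wnt5b printed here and a window of Wnt11, and in 3.73% of all 32851 windows. The windows at the other annotated starts of Wnt5b did not hold it. A match is a description of the letters and not a site.

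The Frizzled receptors, which bind Wnt proteins at the cell surface, were lower in 4 of 10 and higher in 2 of 10. Of all tested genes 18.0% were called lower and 21.8% higher. Fzd10 (chromosome 5, 128600844 to 128604093) had 17.8, 21.0 and 27.8 normalized counts in PDGFA and 559, 672 and 2254 in EF for mice 62, 68 and 69, a 52.3-fold lower mean (log2 difference -5.37 ± 0.52 SE, limma adjusted p = 0.000244). The EF culture of mouse 69 held more than the other EF cultures, and leaving it out gave a log2 difference of -4.75. That culture also had the highest summed level in EF of dividing, progenitor, microglial, and ependymal and choroid markers, a link that was not tested. All 3 EF values stood far above the PDGFA values. The transcript Fzd10os was likewise lower, with 6.79, 4.77 and 11.6 in PDGFA and 183, 144 and 230.1 in EF (log2 difference -4.47 ± 0.41 SE, limma adjusted p = 0.000183). In RefSeq (GRCm38.p6) Fzd10os lies at chromosome 5, 128579130 to 128600687, and Fzd10 begins 418 bases further on, at 128601106, so their annotated transcripts do not overlap there.

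Fzd7, Fzd1 and Fzd4 fell by smaller amounts. Fzd7 had 564, 657 and 643 in PDGFA and 1175, 1598 and 1928 in EF (log2 difference -1.31 ± 0.20 SE, limma adjusted p = 0.00216). Fzd1 had 1148, 1414 and 1236 in PDGFA and 2261, 2463 and 3738 in EF (log2 difference -1.12 ± 0.21 SE, limma adjusted p = 0.00482), and Fzd4, also the receptor of norrin, had 301, 294 and 266 in PDGFA and 654, 608 and 747 in EF (log2 difference -1.22 ± 0.17 SE, limma adjusted p = 0.00138). In each of these the PDGFA libraries lay wholly below EF. All kept their call whichever single library was left out.

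Fzd6, a receptor known for planar polarity, rose: it had 90.0, 121 and 185 in PDGFA and 36.4, 32.7 and 19.2 in EF, a 4.49-fold higher mean (log2 difference 2.12 ± 0.40 SE, limma adjusted p = 0.00523). Fzd8 had 1295, 1560.2 and 1296 in PDGFA and 472, 835 and 1064 in EF (log2 difference 0.88 ± 0.29 SE, limma adjusted p = 0.0453). The groups of Fzd8 did not overlap, but the call was lost without EF 68 (limma adjusted p = 0.073), PDGFA 62 (0.0968), PDGFA 68 (0.146) or PDGFA 69 (0.102), and its adjusted p ran over 0.0167 to 0.199 in the alternatives. Fzd3, which is known for guiding axons, had the highest count of the family, with 12105, 13024 and 11679 in PDGFA and 9294, 10991 and 8762 in EF. The Fzd3 groups did not overlap either, and its log2 difference of 0.35 was not called (limma adjusted p = 0.096).

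Fzd2, Fzd5 and Fzd9 were not called. Fzd2 had 1391, 1534 and 1407 in PDGFA and 954, 2256 and 2419 in EF, where mouse 62 was lowest. Without EF 62 its log2 difference was -0.70 and called (limma adjusted p = 0.00415), against -0.26 and 0.563 with all libraries, and 0.00415 to 0.961 over its alternatives. Fzd9 had 1241, 1463 and 2363 in PDGFA and 2248, 5159.9 and 2154 in EF, with mouse 68 high in EF as it was for Wnt7b (log2 difference -0.85 ± 0.38 SE, limma adjusted p = 0.114). Fzd5 had 625, 1016 and 1599 in PDGFA and 726, 825 and 1088 in EF (log2 difference 0.21 ± 0.34 SE, limma adjusted p = 0.646). The co-receptors showed no call: the log2 difference of Lrp5 was -0.40 (95% interval -1.03 to 0.22) and that of Lrp6 -0.23 (-0.57 to 0.11). Lrp6 had 6377, 6559 and 5128 in PDGFA and 7161, 7342 and 6599 in EF.

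Per kilobase of exon, Fzd3 was the most abundant Frizzled in PDGFA, with 958 ± 53.7 normalized counts per kb (SD, n = 3), and Fzd9 came next with 736 ± 259, so that the difference between them is smaller than the SD of Fzd9. In EF the order was Fzd9 with 1390.0 ± 745, Fzd3 with 756 ± 90.9 and Fzd1 with 672 ± 191 per kb, and none of these neighbours differ by more than the SD of Fzd9 or of Fzd1. The sum over the 10 Frizzled genes was 2640.4, 3039 and 3298 per kb in PDGFA and 3225, 5227 and 4744 in EF, lower in PDGFA in each mouse but with overlapping groups. Fzd10 made up 0.208, 0.213 and 0.259% of it in PDGFA and 5.34, 3.96 and 14.6% in EF.

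**Figure D3:**
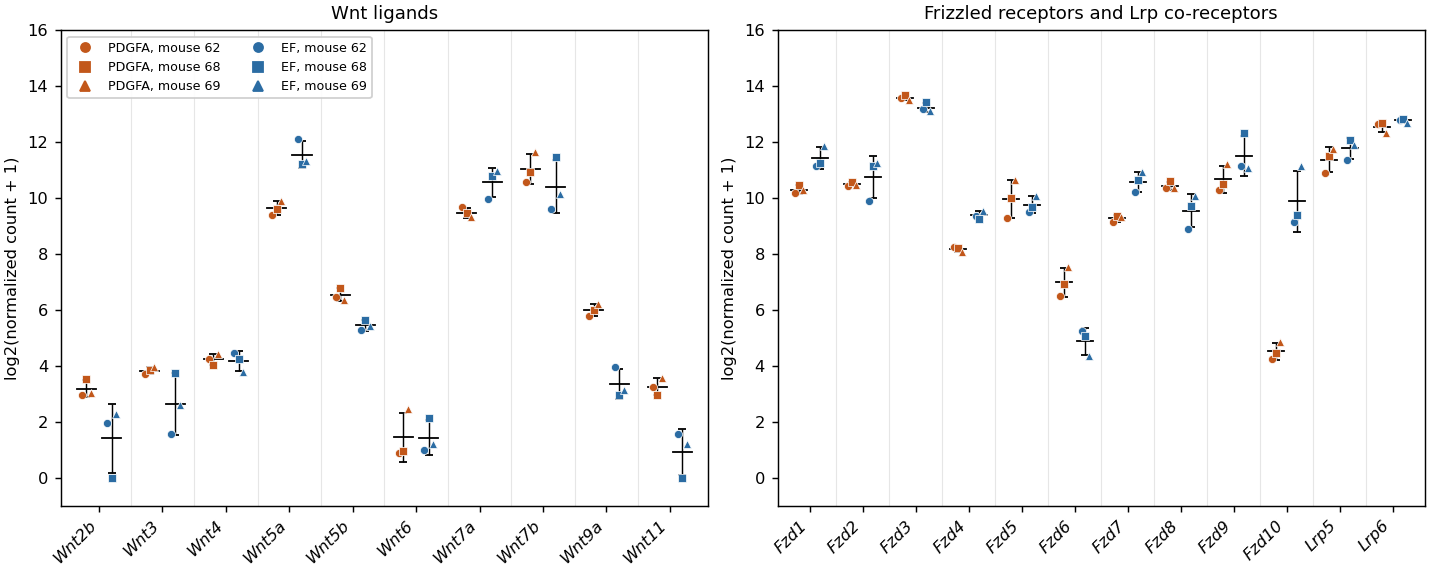
Ligands (left) and receptors (right) in each library, as log2(normalized count + 1). Symbols are mice, with PDGFA left of EF for each gene, and bars are the mean of the log2 values ± SD (n = 3). Wnt5a, Wnt7a, Fzd1, Fzd4, Fzd7, Fzd10 and, narrowly, Lrp6 lie wholly lower in PDGFA, and Wnt5b, Wnt9a, Fzd3, Fzd6 and Fzd8 wholly higher. The untested Wnt2b and Wnt11, with few reads, also lie wholly higher.

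Among the secreted inhibitors, 3 of the 4 Sfrp genes fell, where 18.0% of all tested genes were called lower. Sfrp proteins carry a Frizzled-like domain and bind Wnt proteins outside the cell. Sfrp2 (chromosome 3, 83766321 to 83774316) had 152, 139 and 103 in PDGFA and 549.7, 1001 and 862 in EF, a 6.12-fold lower mean (log2 difference -2.58 ± 0.28 SE, limma adjusted p = 0.000423). Sfrp4 had 103, 77.3 and 46.6 in PDGFA and 236, 193 and 208 in EF (log2 difference -1.54 ± 0.34 SE, limma adjusted p = 0.00935), and Sfrp5 had 33.1, 15.3 and 8.96 in PDGFA and 62.2, 120.5 and 56.3 in EF (log2 difference -2.10 ± 0.54 SE, limma adjusted p = 0.0187). The groups did not overlap for any of these. Sfrp5 lost its call without EF 68 (limma adjusted p = 0.0614), PDGFA 68 (0.066) or PDGFA 69 (0.0626), and its adjusted p ran over 0.00246 to 0.175 in the alternatives. Sfrp1 did not share the fall: it had 533, 616 and 349 in PDGFA and 192, 464 and 669 in EF, with a log2 difference of 0.31 (95% interval -0.75 to 1.37, limma adjusted p = 0.615), which became -0.20 without EF 62. Of the sum of the 4 genes per kb, Sfrp2 made up 30.1, 27.9 and 33.3% in PDGFA and 65.7, 68.3 and 63.3% in EF. Sfrp1 made up 52.0, 60.7 and 55.6% in PDGFA and 11.3, 15.6 and 24.2% in EF, so the largest part was Sfrp1 in each PDGFA library and Sfrp2 in each EF library.

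Other regulators outside the cell or in its membrane rose. Apcdd1, a membrane glycoprotein that inhibits Wnt signalling (chromosome 18, 62922231 to 62961179), had 1284, 1701 and 1709 in PDGFA and 101, 142 and 92.0 in EF, a 14.0-fold higher mean (log2 difference 3.81 ± 0.23 SE, limma adjusted p = 3.25e-05). It showed the largest rise of all members, with 3.66, 3.57 and 4.20 (log2) for mice 62, 68 and 69. Dkk3, a divergent member of the Dickkopf family, had 305, 297 and 146 in PDGFA and 30.6, 48.4 and 51.1 in EF (log2 difference 2.45 ± 0.39 SE, limma adjusted p = 0.00225). Mouse 69 was the lowest in PDGFA but still above every EF value.

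Znrf3 and Rnf43 are related membrane ubiquitin ligases that remove Frizzled receptors from the cell surface, and they changed in opposite directions. Znrf3 (chromosome 11, 5276324 to 5444847) had 1207, 1386 and 1182 in PDGFA and 3026, 2881 and 3264 in EF, tight in both groups (log2 difference -1.28 ± 0.13 SE, limma adjusted p = 0.000307). Rnf43 had 109, 119 and 57.3 in PDGFA and 23.0, 27.0 and 2.56 in EF (log2 difference 2.78 ± 0.80 SE, limma adjusted p = 0.0283). The EF library of mouse 69 held 2 reads of Rnf43, and leaving it out gave a log2 difference of 1.82. The call of Rnf43 was lost without PDGFA 62 (limma adjusted p = 0.0857), PDGFA 68 (0.0951) or PDGFA 69 (0.0526), and its adjusted p ran over 0.00221 to 0.0951 in the alternatives. Per kb of exon Znrf3 stayed above Rnf43 in both media, with 159 ± 14.1 against 14.5 ± 5.05 in PDGFA and 387 ± 24.5 against a mean of 2.67 in EF. Notum, an enzyme that strips the lipid from Wnt proteins, had 25.5, 21.0 and 8.96 in PDGFA and 16.3, 23.6 and 11.5 in EF, with an interval of -1.15 to 1.23 for its log2 difference. The R-spondins Rspo2 and Rspo3, which stabilise Wnt receptors, had 10 and 33 reads over the 6 libraries. Dkkl1 had 6.79, 4.77 and 7.17 normalized counts in PDGFA and 9.58, 1.13 and 5.11 in EF, and Rspo4os had 0, 0 and 1.79 in PDGFA and 6.70, 13.5 and 3.84 in EF.

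**Figure D4:**
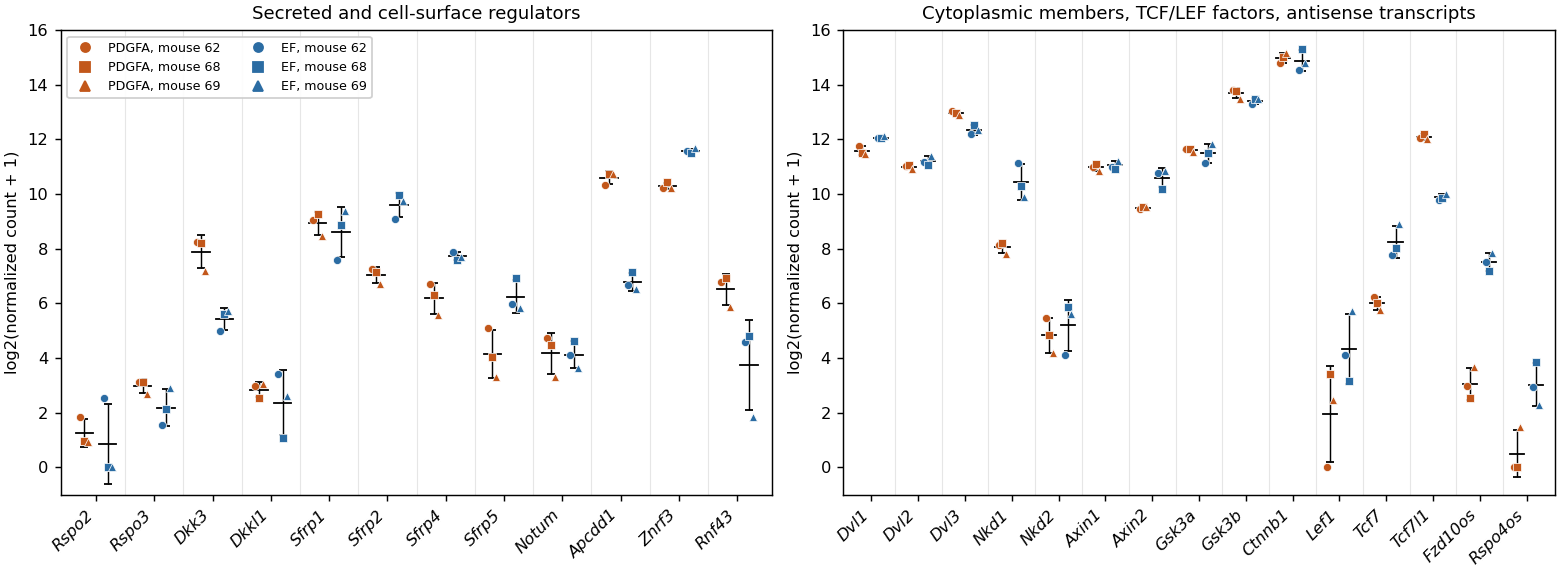
Secreted and surface regulators (left) and cytoplasmic members, TCF/LEF factors and antisense transcripts (right) in each library, as log2(normalized count + 1). Symbols are mice, with PDGFA left of EF for each gene, and bars are the mean of the log2 values ± SD (n = 3). Apcdd1, Dkk3, Rnf43, Dvl3 and Tcf7l1 lie wholly higher in PDGFA. Sfrp2, Sfrp4, Sfrp5, Znrf3, Dvl1, Dvl2, Nkd1, Axin2, Tcf7, Fzd10os and the untested Rspo4os lie wholly lower. The other genes, among them Ctnnb1, Gsk3a and Axin1, overlap.

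Inside the cell, beta-catenin, Axin1, Gsk3a and Gsk3b were not called, while Axin2, Nkd1 and Dvl1 fell and Dvl3 rose. Ctnnb1, beta-catenin, was the most abundant member, with 28493, 33479.5 and 36552 in PDGFA and 23776, 40892 and 28693 in EF. Its log2 difference was 0.11 with a 95% interval of -0.45 to 0.67. The corresponding values were -0.07 (-0.41 to 0.26) for the scaffold Axin1, 0.13 (-0.30 to 0.56) for Gsk3a and 0.28 (-0.08 to 0.64) for Gsk3b. The data do not tell these genes from unchanged ones, and values within the intervals remain possible. RNA levels do not measure beta-catenin protein.

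Axin2, a scaffold like Axin1 that is known as a transcriptional target of the pathway, had 706, 745 and 730.2 in PDGFA and 1758, 1175 and 1837 in EF (log2 difference -1.10 ± 0.20 SE, limma adjusted p = 0.00382). The PDGFA libraries lay close together, all below EF. Nkd1, which binds Dishevelled and is likewise a known feedback target, had 280.1, 294 and 223 in PDGFA and 2281, 1255 and 941 in EF, a 5.62-fold lower mean (log2 difference -2.39 ± 0.32 SE, limma adjusted p = 0.00106). The paralog Nkd2 had 43.3, 27.7 and 17.0 in PDGFA and 16.3, 57.4 and 47.3 in EF and was not called (log2 difference -0.36 ± 0.57 SE, limma adjusted p = 0.645). Whether Axin2 and Nkd1 stand for the known targets at large was not tested. Of 13 tested targets outside the members, 4 were higher and 4 lower, beside 21.8% and 18.0% of all tested genes.

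The start regions of 2 genes that fell, the target Axin2 and the inhibitor Sfrp2, are shown beside those of the ligands that rose. Both are on the plus strand, from RefSeq (GRCm38.p6), at chr11:108920099-108920348 and chr3:83766071-83766320, and end at the base before the start site.
Axin2: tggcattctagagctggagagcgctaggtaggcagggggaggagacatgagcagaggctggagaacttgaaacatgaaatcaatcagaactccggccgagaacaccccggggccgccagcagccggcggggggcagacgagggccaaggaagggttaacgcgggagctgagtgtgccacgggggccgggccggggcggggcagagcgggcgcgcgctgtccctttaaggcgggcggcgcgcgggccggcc
Sfrp2: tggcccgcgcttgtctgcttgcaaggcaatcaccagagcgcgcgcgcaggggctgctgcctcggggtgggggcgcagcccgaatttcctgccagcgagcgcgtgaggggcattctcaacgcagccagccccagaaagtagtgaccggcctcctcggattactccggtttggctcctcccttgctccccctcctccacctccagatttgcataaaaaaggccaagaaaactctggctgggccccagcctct
Neither holds CTTTGAT on either strand, so no letters are in capitals. They are 69.2% and 63.6% G and C, where the median of the 39 member windows was 67.3% and that of all windows 52.7%. No match says only that these letters are not in this window. The Wnt5b region was picked for holding the word, so its match cannot be set against these.

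The 3 Dishevelled genes, which relay the signal from Frizzled, did not move together. Dvl3 had 8472, 8024 and 7597 in PDGFA and 4668, 5895 and 5165 in EF (log2 difference 0.62 ± 0.14 SE, limma adjusted p = 0.0106), and Dvl1 had 3498, 2938 and 2805 in PDGFA and 4238, 4233 and 4428 in EF (log2 difference -0.49 ± 0.13 SE, limma adjusted p = 0.0232). Dvl2 had 2111, 2126 and 1921 in PDGFA and 2323, 2165 and 2689 in EF and was not called (log2 difference -0.22 ± 0.14 SE, limma adjusted p = 0.242). Both calls were among the smaller changes and depended on single libraries. Dvl1 lost its call in the fit with a mouse block (limma adjusted p = 0.0656), without PDGFA 68 (0.116) or without PDGFA 69 (0.0934), and its adjusted p ran over 0.00546 to 0.207 in the alternatives. Dvl3 was not called without PDGFA 62 (0.0546) or PDGFA 68 (0.0565), and its adjusted p ran over 0.00047 to 0.0737 in the alternatives. Per kb of exon Dvl3 had 1253 ± 68.3 and Dvl1 617 ± 73.6 in PDGFA, whereas in EF they had 818 ± 96.3 and 861 ± 22.3, which differ by less than the SD of Dvl3 (SD, n = 3).

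Among the TCF/LEF factors, Tcf7l1 rose and Tcf7 fell. Tcf7l1, known mainly as a repressor of target genes when beta-catenin is absent (chromosome 6, 72626378 to 72789254), had 4266, 4727 and 4126 in PDGFA and 878, 936 and 1019 in EF, a 4.63-fold higher mean (log2 difference 2.21 ± 0.13 SE, limma adjusted p = 2.86e-05). Its replicates were tight in both media. Tcf7, known mainly as an activator with beta-catenin (chromosome 11, 52252371 to 52283014), had 74.7, 64.0 and 52.9 in PDGFA and 219, 260.1 and 476 in EF, a 4.99-fold lower mean (log2 difference -2.23 ± 0.35 SE, limma adjusted p = 0.00211). Lef1, also known as an activator, had 0, 9.55 and 4.48 in PDGFA and 16.3, 7.88 and 51.1 in EF. Its groups overlapped, and its log2 difference of -2.37 (SE 0.99) was not called (limma adjusted p = 0.095). It was -1.40 without PDGFA 62, -2.96 without EF 68 and -3.10 without PDGFA 68, and without EF 69 its mean was too low for the test.

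Other genes of the pathway, drawn up as 6 lists without the members, also went both ways. Of 83 tested, 20 (24.1%) were higher and 24 (28.9%) lower, beside 21.8% and 18.0% of all tested genes, and the counts of the single lists are to be read against the same shares. Their median was a log2 difference of -0.0082, beside -0.0095 for all tested genes. Without PDGFA 68 or PDGFA 69, 13 of them were lower. Tcf7l2, the TCF/LEF factor that the family names used here leave out, known from oligodendrocytes that begin to mature, had 9646, 10778 and 9614 in PDGFA and 2432, 1986 and 3046 in EF (log2 difference 2.03 ± 0.18 SE, limma adjusted p = 0.000144). It rose like Tcf7l1. All 11 markers of maturing oligodendrocytes and 6 of 9 astrocyte markers were higher beside it, a link that was not tested. Of the 17 nuclear cofactors 3 were higher and 4 lower. The co-repressor Tle2 had 251, 241 and 384 in PDGFA and 3784, 2511 and 2022 in EF (log2 difference -3.23 ± 0.28 SE, limma adjusted p = 0.000143). Tle5, a short relative of the co-repressors, fell by 1.30 on the log2 scale, while Pygo1, a partner of the beta-catenin complex, rose by 1.17. Tle1 rose by 0.67 and Ctbp2 fell by 0.66. Tle1 lost its call with a mouse block (limma adjusted p = 0.0506; 0.00773 to 0.193 over the alternatives), with total-read scaling, and without EF 68, EF 69, PDGFA 68 or PDGFA 69. Ctbp2 lost its call whichever single PDGFA library was left out (0.00512 to 0.121).

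The planar polarity genes, which orient cells within a sheet, were called most often of the 6 lists after the extracellular inhibitors, with 5 higher and 5 lower of 13 tested. Prickle1, a core polarity protein, had 2350.1, 3364 and 3339 in PDGFA and 177, 159 and 147 in EF (log2 difference 4.20 ± 0.19 SE, limma adjusted p = 1.56e-05). Celsr1, an atypical cadherin of the same system, had 7011, 7103 and 3301 in PDGFA and 463, 365 and 187 in EF (log2 difference 4.11 ± 0.41 SE, limma adjusted p = 0.000263), and Daam2, a formin that binds Dishevelled, had 1238, 1540.2 and 2267 in PDGFA and 144, 208 and 99.7 in EF (log2 difference 3.49 ± 0.33 SE, limma adjusted p = 0.000201). Dact1, a Dishevelled-binding regulator, went the other way, with 194, 209 and 167 in PDGFA and 4118, 2842 and 4931 in EF (log2 difference -4.35 ± 0.23 SE, limma adjusted p = 2.22e-05). Vangl1 and Scrib fell by 1.26 and 0.55, the second without a call when PDGFA 68 (limma adjusted p = 0.0625) or PDGFA 69 (0.0503) was left out, and its adjusted p ran over 6.94e-05 to 0.117 in the alternatives.

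Genes of ligand release and surface cofactors were higher in 3 and lower in 5 of 15. Lrp4, a relative of Lrp5 and Lrp6 that can bind Wnt inhibitors, had 7854, 7930.1 and 7860.1 in PDGFA and 2807, 2293 and 2631 in EF (log2 difference 1.62 ± 0.13 SE, limma adjusted p = 9.5e-05). Porcn, which adds the lipid to Wnt proteins, had 975, 955 and 929 in PDGFA and 510.4, 588 and 299 in EF (log2 difference 1.09 ± 0.26 SE, limma adjusted p = 0.0132), and was not called without PDGFA 68 (0.0517; 0.0015 to 0.0517 over the alternatives). The glypican Gpc3 rose by 1.87, while the glypicans Gpc4 and Gpc6 fell by 2.28 and 1.80 and the Wnt receptor Ryk by 0.57. Of 7 tested extracellular inhibitors 2 were higher and 4 lower. Frzb, a relative of the Sfrp genes, had 338, 570.1 and 284 in PDGFA and 43.1, 158 and 65.2 in EF (log2 difference 2.30 ± 0.50 SE, limma adjusted p = 0.00925), and Kremen1, a receptor of Dickkopf proteins, had 995, 1168 and 1157 in PDGFA and 3195, 1970.3 and 1996 in EF (log2 difference -1.07 ± 0.21 SE, limma adjusted p = 0.00609). Tmem131l fell by 0.72 and Shisa3 by 1.98, and Shisa2 rose by 1.30. Shisa3 was not called without PDGFA 68 (limma adjusted p = 0.0541) or PDGFA 69 (0.0608), and its adjusted p ran over 6.88e-05 to 0.117 in the alternatives. Shisa2 lost its call when EF 62, EF 68, PDGFA 68 or PDGFA 69 was left out (0.00465 to 0.211 over the alternatives).

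The destruction complex and its kinases had the smallest share of calls of the 6 lists, with 3 higher and 2 lower of 18. Apc2, the neural relative of Apc, had 7846, 6901 and 5064 in PDGFA and 774, 3106 and 587 in EF (log2 difference 2.53 ± 0.57 SE, limma adjusted p = 0.0108), and without EF 68, its highest EF library, the log2 difference was 3.27. Rnf146, a ubiquitin ligase that acts on Axin, rose by 0.79 (limma adjusted p = 0.00341). Amer2 (0.68), Apc (-0.51) and the casein kinase Csnk1g2 (-0.64) lay near the threshold. Amer2 was not called under most alternatives (0.0123 to 0.141), among them each single PDGFA library left out. Apc and Csnk1g2 were not called with a mouse block (limma adjusted p = 0.11 and 0.0617) or when any single library other than EF 62 was left out, and their adjusted p ran over 0.00272 to 0.276 and 0.00547 to 0.197 in the alternatives.

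Genes known as targets of the pathway in other tissues were higher in 4 and lower in 4 of 13 tested. The cyclin Ccnd1 had 1565, 1344 and 2167 in PDGFA and 31604, 52205 and 77723 in EF (log2 difference -4.93 ± 0.33 SE, limma adjusted p = 4.84e-05), and Myc, a growth regulator, had 3226, 2759 and 2499.7 in PDGFA and 4821, 5071 and 8209 in EF (log2 difference -1.06 ± 0.22 SE, limma adjusted p = 0.00846). Both are also targets of growth factor signalling, and all 10 markers of dividing cells were lower with them, a link that was not tested. T, the transcription factor brachyury, fell to 3.39, 2.86 and 1.79 in PDGFA, against 46.0, 32.7 and 35.8 in EF (log2 difference -3.42 ± 0.40 SE, limma adjusted p = 0.000584). Bmp4, a ligand of the bone morphogenetic protein pathway, had 840.2, 1116 and 427 in PDGFA and 0, 9.01 and 2.56 in EF (log2 difference 7.81 ± 0.81 SE, limma adjusted p = 0.000329), with a log2 difference of 6.95 without EF 62 and 8.61 without EF 68. The receptors Met and Ephb2 rose by 4.58 and 2.20. Tnfrsf19, another known target, had a log2 difference of -0.08 (95% interval -0.61 to 0.45).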

How the data were processed

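Libraries of polyA RNA from 6 cultures came from the E7770 kit of NEBNext, per the labels. This kit keeps no strand information, so overlapping genes cannot be told apart. The authors' deposited values are a normalized signal, named as normalized counts; from the values, they are gene counts scaled by a size factor for every library. Per the submitters' processing notes, the tools include FastQC, STAR and DESeq2 and the build is mm10 (GRCm38). Annotation and strand setting: not given in the sources used here. Dividing the values of a library by their smallest nonzero value gave whole reads for 100% (tolerance 0.001), with size factors of 0.782 to 1.18. Exons of 15 members share bases with another gene in GENCODE M21, which holds 97.7% of the symbols and gave the coordinates and exon lengths.

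For genes with a mean of at least 10, limma 3.58.1 (eBayes with a trend, R 4.3.3) compared log2(normalized count + 1) between groups, two-sided, with Benjamini-Hochberg adjustment over all 17068 genes at 0.05. Differences on this scale understate the change of genes with few reads. The files held normalized values, so edgeR 4.0.16 (quasi-likelihood) and DESeq2 1.42.0 on recovered reads, other pseudocounts, filters and scalings, a mouse block and libraries left out are alternatives. Each mouse gave both cultures, so libraries are paired by animal. The correlation of deviations from group means was -0.091, 0.11 and -0.11 for mice 62, 68 and 69. The labels do not say whether a mouse gave more than 1 culture per medium, and p-values measure the spread between these libraries. Libraries of a group differed by more than sampling noise (chi-square over its degrees of freedom, 21.8 to 151). The fits were tested on simulated data drawn with the same setting of spread for both groups, so that test does not cover the wider spread of EF. For genes with few reads, counting error at this depth was not separated from the spread between cultures. Values per library are given for called ligands, receptors and secreted regulators and for other called members of high change, and for up to 3 genes in each direction of the other lists. The members and lists were chosen with earlier results of these data known.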

Additional observations from a re-analysis of the deposited data

How the results depend on the processing

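The 24 calls of members were unchanged with pseudocounts of 0.5 and 5, with no filter, with TMM, total-read or upper-quartile scaling, in edgeR and in DESeq2; with a filter at 50 the 22 calls that could be tested remained. On the recovered reads edgeR called 3592 genes higher and 3263 lower over all genes, and DESeq2 3942 and 3746. With no filter the untested Wnt11 (higher, limma adjusted p = 0.0129) and Rspo4os (lower, limma adjusted p = 0.0173) were called as well. With the mouse as a block 8 members were higher and 14 lower in limma and in edgeR, since Wnt5b and Dvl1 lost their call, and the pairing changed no other member's call. Leaving out 1 library gave 5 to 9 members higher and 12 to 16 lower, 15 to 21 other pathway genes higher and 13 to 28 lower, and 2245 to 4271 genes higher and 1873 to 3818 lower overall. Without both libraries of mouse 68 there were 4 members higher and 11 lower, and 9 other pathway genes lower. Over all genes 1943 were higher and 1333 lower in that fit, which holds fewer samples. The 9 members lost were Wnt5b, Wnt7a, Fzd6, Fzd8, Sfrp4, Sfrp5, Rnf43, Dvl1 and Dvl3. Outside the members, Ryk, Tmem131l, Rnf146 and Myc lost their call in that fit alone (limma adjusted p = 0.0863, 0.0666, 0.0851 and 0.0562).

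No called member changed direction under any of these alternatives. Among uncalled members, the log2 difference of Notum was -0.017 with total-read scaling. In fits without 1 library it ran from -0.13 to 0.21 for Wnt4, -0.12 to 0.56 for Fzd5, -0.20 to 0.70 for Sfrp1, -0.24 to 0.47 for Notum, -0.14 to 0.012 for Axin1, -0.049 to 0.30 for Gsk3a and -0.068 to 0.32 for Ctnnb1. No scaling moved the median over all genes by more than 0.1. Members with few reads (Wnt4, Lef1, Notum, Nkd2) had wide intervals, and the part of depth in that was not tested.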
